A study of Mus musculus with 24 samples.

Results

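The subunit genes of the oxidative phosphorylation chain were followed in fibroblasts cultured from mouse embryos (MEFs, primary cells) that lacked the cytosolic DNA sensor cGAS (KO) and in wild-type (WT) MEFs. The members were the genes whose names mark them as subunits of complexes I to V. They numbered 96 of the 45706 genes in the count table, of which 13 lie on the mitochondrial genome and 83 on nuclear chromosomes. All cells were of the C57BL/6 strain (labelled C57B1/6) and all had been passaged under 20% oxygen. The groups were KO day 33, KO day 36 and KO day 42, and WT day 33, WT day 36 and WT day 42, at passages 11, 12 and 14 on the 3 days in both genotypes. RNA was taken from bulk cultures, and the labels do not say how many embryos or culture lines stood behind a genotype. Each group had 4 deposited columns that differed from each other by no more than about the sampling noise; they were summed and counted as 1 sample, which left 3 libraries per genotype.

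The respiratory chain passes electrons from NADH (through complex I) and from succinate (through complex II) to complexes III and IV, and complex V makes ATP from the proton gradient that results. Its subunits come from different genomes: the mitochondrial DNA encodes core subunits of complexes I, III, IV and V, while all of complex II and the remaining subunits are made from nuclear genes and imported. Mitochondrial genes are transcribed as long polycistronic RNAs from both strands and cut into single messages, so their levels depend on mitochondrial transcription, processing and RNA stability. Nuclear subunit genes are transcribed one by one, many of them under factors such as NRF1, the ETS factor GABP and YY1.

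KO libraries held fewer mitochondrially encoded subunit messages than WT libraries of the same day, while the nuclear-encoded subunits stood at nearly the same level in both genotypes. Summed over its 13 members, the mitochondrially encoded set reached 12542 CPM in KO on day 33, 6450.1 CPM on day 36 and 8068 CPM on day 42, against 19168, 25191 and 10800 CPM in WT. CPM are counts relative to the scaled library total, comparable between libraries. The 83 nuclear-encoded members summed to 5033, 5241 and 4743 CPM in KO, against 5127, 5368 and 4787 CPM in WT. The ratio of the sums was therefore 2.49, 1.23 and 1.70 in KO and 3.74, 4.69 and 2.26 in WT. KO was below WT on each day, but KO day 33 (2.49) lay above WT day 42 (2.26), so the genotypes overlapped when days were pooled.

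**Figure D1:**
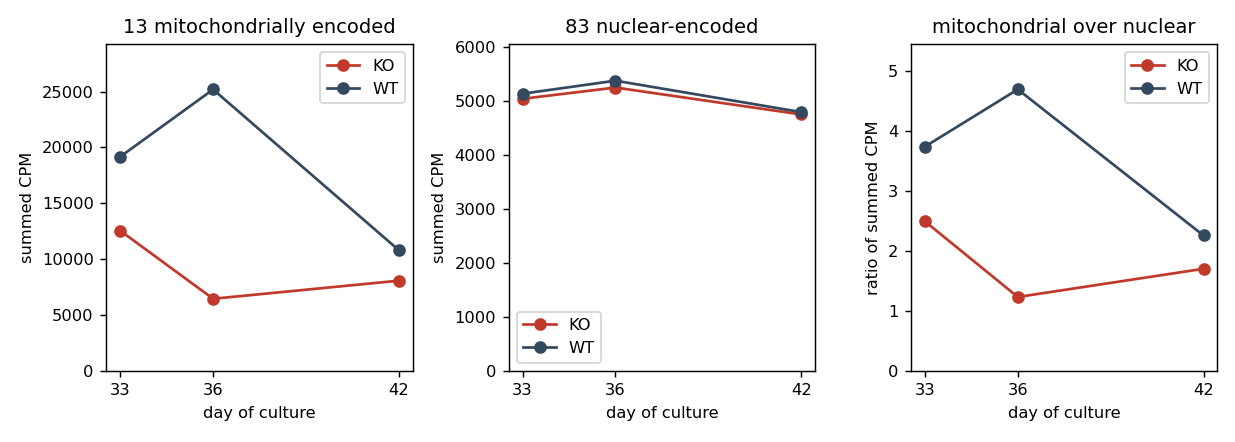
Summed CPM of the 13 mitochondrially encoded subunits, summed CPM of the 83 nuclear-encoded subunits, and the ratio of the sums, against day of culture, with 1 library per point (KO red, WT grey-blue). The KO and WT lines lie apart in the mitochondrial panel, most on day 36 (6450.1 CPM in KO and 25191 CPM in WT), and nearly coincide in the nuclear panel.

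Near-identical nuclear copies of mitochondrial genes also carried counts. For 9 of the 13 members, the annotated transcripts held a copy elsewhere of at least 95% identity over at least 100 bases, and these copies carried 39.3% of the counts of members and copies together. The copy shares ran from 12.8% for mt-Nd5 to 65.8% for mt-Co2, and mt-Nd1, mt-Atp8, mt-Nd6 and mt-Cytb had none at these limits among the annotated transcripts. A less similar copy of them would have been missed. On chromosome 1 the copies of mt-Atp6 (Gm10925) and mt-Co2 (Gm28661) are neighbours, as mt-Atp6 and mt-Co2 flank mt-Atp8 on the mitochondrial genome. A copy of mt-Atp8 without an annotated transcript would have been missed there. How reads that match a member and a copy were counted is not given in the sources used here, so the levels of these 9 are uncertain. Those of mt-Atp8, mt-Nd1, mt-Nd6 and mt-Cytb may be uncertain too. mt-Co2 encodes a core subunit of complex IV; its opening 120 bases are shown beside the same stretch of its copies on chromosomes 1 and 2 because reads from the member and from Gm28661 cannot be told apart by sequence. Capitals mark bases of a copy that differ from mt-Co2 (GRCm38, transcript strand, GENCODE M21 transcripts).
mt-Co2 (chrM:7013-7132, plus strand): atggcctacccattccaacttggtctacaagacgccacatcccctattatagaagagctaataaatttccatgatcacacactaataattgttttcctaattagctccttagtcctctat
Gm28661 (chr1:24615446-24615565, minus strand): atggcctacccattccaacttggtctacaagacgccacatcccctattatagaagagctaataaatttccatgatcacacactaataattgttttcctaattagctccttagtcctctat
Gm13341 (chr2:22587843-22587962, minus strand): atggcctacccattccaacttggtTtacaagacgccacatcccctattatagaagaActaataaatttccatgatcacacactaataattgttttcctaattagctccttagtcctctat

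Gm28661 matched mt-Co2 at all 681 aligned bases and held 191839 counts over all libraries, against 191309 for mt-Co2 itself. Gm13341 differed at 16 of 672 aligned bases, with gaps left out, and held 176169 counts. By BLAST it had 95.9% identity over 684 positions. mt-Nd3 encodes a small membrane subunit of complex I, and its opening 60 bases follow with those of its copy on chromosome 1, since mt-Nd3 departed from the other complex I messages in the results. The capital marks the sole mismatch over 345 aligned bases.
mt-Nd3 (chrM:9459-9518, plus strand): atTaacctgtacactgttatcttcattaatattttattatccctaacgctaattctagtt
Gm28438 (chr1:24613060-24613119, minus strand): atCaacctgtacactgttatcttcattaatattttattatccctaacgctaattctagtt

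With the counts of every copy added to its member, the mitochondrially encoded sum was 20937, 10704 and 13586 CPM in KO, against 31371, 40948 and 18048 CPM in WT. The order of the 6 libraries was the same with copies as without. All chrM genes with these copies took 2.11, 1.14 and 1.49% of the counts in KO and 3.05, 3.84 and 1.82% in WT. Exact Clopper-Pearson 95% intervals, which cover counting error only, were 1.13 to 1.14% for KO day 36 and 3.83 to 3.85% for WT day 36.

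The libraries held 33636556, 25651250 and 36447639 counts in KO and 48717439, 47092611 and 35025184 counts in WT. Mb21d1, the gene of cGAS, was at 0.239, 0 and 0.127 CPM in KO, against 4.74, 4.08 and 4.82 CPM in WT, which matched the labels. The genotypes also differed in sex-linked RNA: Xist was at 465 to 641 CPM in KO and at most 0.363 CPM in WT. The Y-linked Ddx3y was at 38.3 to 45.0 CPM in KO against 122 to 166 CPM in WT. Uty was at 2.69 to 2.91 against 29.9 to 32.0 CPM, Eif2s3y at 6.23 to 6.97 against 53.7 to 69.0 CPM, and Kdm5d at 6.76 to 7.33 against 33.5 to 43.7 CPM. The KO libraries thus held both Xist and Y-linked RNA. Genotype and the sex of the cultures cannot be told apart. Fibroblast markers summed to 50494 to 60483 CPM in KO and 54730 to 58887 CPM in WT, with 8 of 8 tested and none called, while 8.72% of all genes tested were; their median log2 was -0.36, and the lowest was Dcn, a matrix proteoglycan, at -2.78 (7.60, 12.8 and 18.4 CPM in KO and 72.1, 23.7 and 170.1 CPM in WT; adjusted p = 0.0658 by edgeR). Macrophage markers summed to 55.6, 6.38 and 5.30 CPM in KO and 118, 27.4 and 9.06 CPM in WT, with 7 of 8 tested and none called. Adipocyte markers summed to 9.96, 3.28 and 4.13 CPM in KO and 38.5, 24.3 and 23.2 CPM in WT. Of these 6 markers 2 were tested, and Lpl, the lipoprotein lipase, fell by 3.17 ± 0.53 on the log2 scale (adjusted p = 0.0212 by edgeR), a call lost without KO day 36, KO day 42, WT day 33 or WT day 36 (log2 -3.25 to -2.84); Cidea had 0 rounded counts in every library. The part of the fibroblast, macrophage and adipocyte markers in the results was not tested. In bulk RNA, fewer cells of a type and less RNA per cell cannot be told apart.

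The 13 mitochondrially encoded messages all had a fitted log2 KO over WT below 0, with a median of -1.16, but none passed the adjusted threshold. Over the 3 libraries of each genotype, edgeR's quasi-likelihood test gave adjusted p from 0.0858 to 0.744, against 8.72% of all 17233 genes tested that were called at an adjusted p under 0.05 (4.07% higher and 4.65% lower in KO). At an unadjusted p under 0.05, 10 of 13 were lower in KO, where 14.5% of all genes tested were. DESeq2 on the same libraries called 7 of 13 lower (9.02% of all genes): mt-Nd1, mt-Nd2, mt-Co1, mt-Co2, mt-Nd4l, mt-Nd4 and mt-Cytb. On all 3 days 11 of 13 were lower in KO, against 27.1% of all genes tested. Because the messages share 1 set of RNAs and libraries, they are not 13 independent observations. Leaving out KO day 33 or WT day 42 gave 2 calls each by edgeR, and each other library or day left out gave 0.

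**Figure D2:**
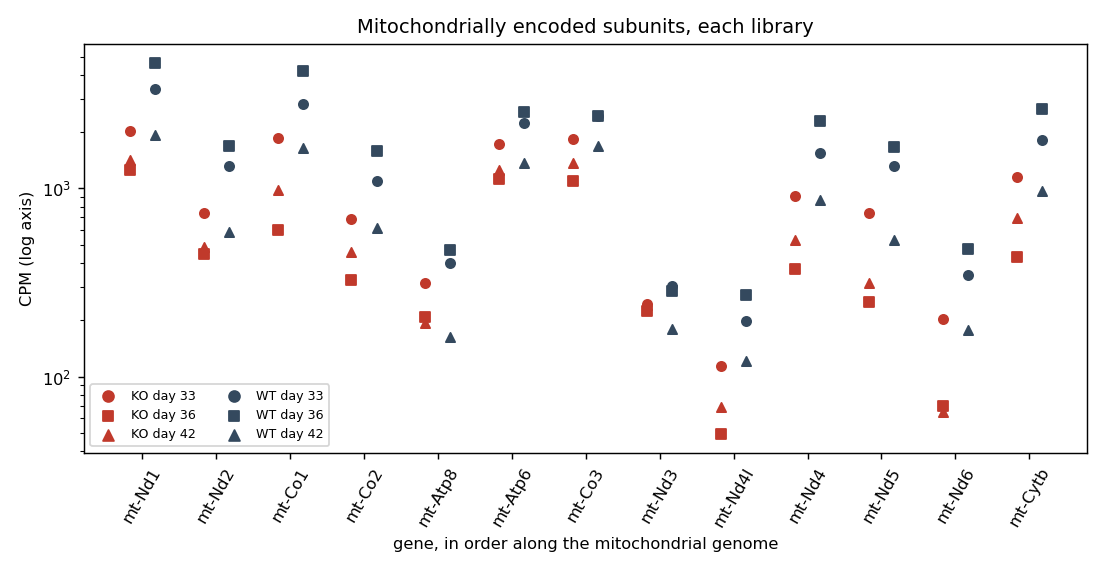
CPM on a log axis of each mitochondrially encoded subunit gene in each library, in their order along the mitochondrial genome; KO is red and left, WT grey-blue and right, and the marker gives the day. In 12 of 13 genes the KO and WT ranges overlap, and mt-Nd4l is the exception.

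Complex I has 7 mitochondrially encoded members, all membrane-arm subunits. In day order, mt-Nd1 was at 2024, 1255 and 1420.0 CPM in KO, against 3374, 4659 and 1922 CPM in WT (log2 KO over WT -1.08 ± 0.35 SE). mt-Nd2 was at 744, 449 and 486 CPM in KO and 1322, 1687 and 586 CPM in WT (-1.10 ± 0.40). In both genes KO day 33 lay above WT day 42 and every other KO library lay below every WT library. mt-Nd4, the large proton-pumping subunit, was at 909, 371 and 531 CPM in KO and 1538, 2279 and 865 CPM in WT (-1.37 ± 0.45). mt-Nd5, another pumping subunit, was at 739.6, 247 and 314 CPM in KO and 1314, 1668 and 529 CPM in WT (-1.43 ± 0.56). The overlap again came from KO day 33 above WT day 42.

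mt-Nd4l was the sole mitochondrially encoded gene whose 3 KO libraries all lay below the 3 WT libraries, a pattern seen in 17.1% of all genes tested. It was at 114, 49.5 and 69.1 CPM in KO and 197, 271 and 121 CPM in WT, with a log2 KO over WT of -1.34 ± 0.39 and the lowest adjusted p of the 13 (0.0858 by edgeR). Its reading frame overlaps that of mt-Nd4 by 7 bases, shown in capitals, and the pair is known to share a bicistronic message (GRCm38, chrM:10147-10193, plus strand).
mt-Nd4l and mt-Nd4 overlap: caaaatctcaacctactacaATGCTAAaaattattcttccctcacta

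mt-Nd6 is the sole mitochondrially encoded subunit gene on the opposite strand (minus, chrM:13552-14070). It was at 203, 69.8 and 64.9 CPM in KO and 347, 474 and 176 CPM in WT, with the lowest fitted log2 of the 13 (-1.56 ± 0.56). KO days 36 and 42 lay far below every WT library, and KO day 33 lay within the WT range. mt-Nd3 stood at the other end, at 243, 223 and 239 CPM in KO and 304, 284 and 179 CPM in WT (-0.12 ± 0.20, adjusted p = 0.744 by edgeR). Its KO libraries lay within the WT range, and KO was higher than WT on day 42.

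mt-Cytb, the mitochondrially encoded subunit of complex III that holds its quinone sites, was at 1147, 430.1 and 692 CPM in KO and 1807.5, 2652 and 973 CPM in WT (-1.26 ± 0.47). Complex IV has 3 core subunits from this genome. mt-Co1, which holds the oxygen-reducing centre, was at 1862, 599 and 984 CPM in KO and 2798, 4216 and 1644 CPM in WT (-1.33 ± 0.50). mt-Co2, which takes electrons from cytochrome c, was at 689, 326 and 459.8 CPM in KO and 1098, 1574 and 612 CPM in WT (-1.16 ± 0.41). mt-Co3, a structural core subunit, was at 1832.5, 1098 and 1369 CPM in KO and 2436, 2419 and 1677.5 CPM in WT (-0.60 ± 0.24). In all 4 genes KO day 33 lay above WT day 42 and the other KO libraries below every WT library.

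The complex V messages mt-Atp8 and mt-Atp6 encode membrane subunits of ATP synthase from overlapping frames; the 43 shared bases are in capitals (GRCm38, chrM:7907-7989, plus strand).
mt-Atp8 and mt-Atp6 overlap: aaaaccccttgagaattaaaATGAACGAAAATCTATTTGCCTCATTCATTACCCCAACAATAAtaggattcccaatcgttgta

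mt-Atp6, the proton channel subunit, was at 1723, 1127 and 1246 CPM in KO and 2229.8, 2536 and 1355 CPM in WT (-0.58 ± 0.28). mt-Atp8 was at 313, 206 and 193 CPM in KO and 403, 472 and 162 CPM in WT (-0.54 ± 0.40). KO was lower than WT for mt-Atp6 on all 3 days and for mt-Atp8 on days 33 and 36. Reads within the shared bases could be counted for either gene.

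Along the mitochondrial genome the smallest differences lay side by side. mt-Atp8, mt-Atp6, mt-Co3 and mt-Nd3 are the 5th to 8th of the 13 genes in genome order, and their fitted log2 KO over WT was -0.60 to -0.12, against -1.56 to -1.08 for the other 9. This grouping was made after the values were seen and carries no test. The daily values enter the fitted ones and give no separate support. Their medians were -0.37 for the 4 and -0.76 for the other 9 on day 33. They were -1.15 and -2.62 on day 36, and 0.06 and -0.70 on day 42. On day 42 the ranges of the groups overlapped (-0.29 to 0.42 for the 4 and -1.44 to -0.27 for the other 9). Between days within a genotype, the ranges lay apart from day 33 to day 36 in WT (-0.10 to 0.23 for the 4 and 0.34 to 0.59 for the other 9). They overlapped in every other step, as from day 33 to day 42 in WT (-1.31 to -0.54 and -1.31 to -0.70). With copies added, the fitted ranges were -0.60 to -0.12 and -1.56 to -1.06. Of these 4 genes, 3 have an annotated copy that holds about as many counts as the gene, and so have mt-Nd4l, mt-Co1 and mt-Co2 among the other 9.

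**Figure D3:**
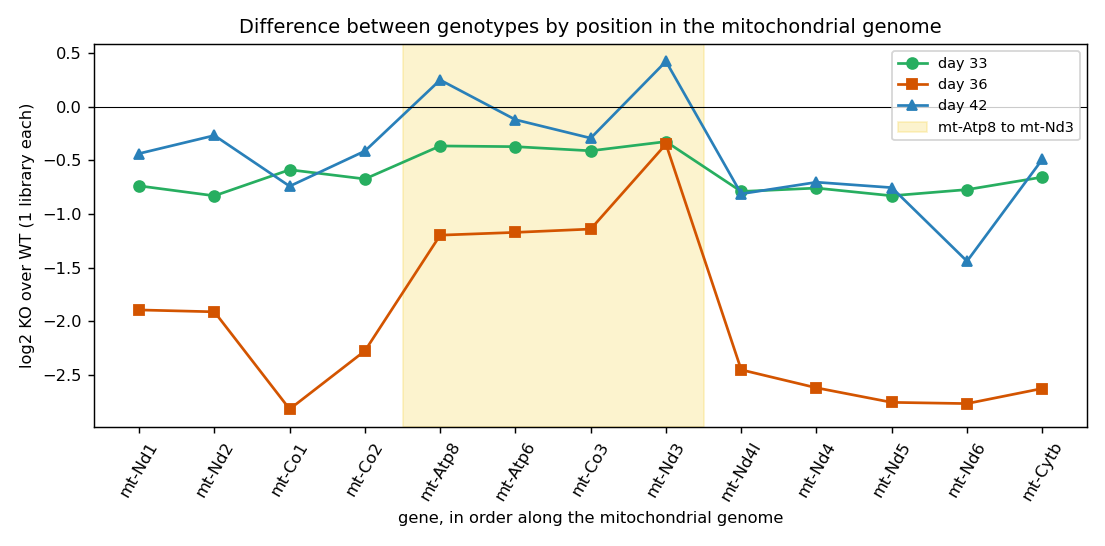
Log2 KO over WT of each mitochondrially encoded subunit gene by day, 1 library of each genotype per point, in genome order; the shaded band holds mt-Atp8, mt-Atp6, mt-Co3 and mt-Nd3. The band lies nearest to 0 on each day by its median (-0.37, -1.15 and 0.06), and the day 36 line is the lowest outside it.

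Levels can be compared between genes only per length, for which the authors' deposited RPKM serve. mt-Atp6 led the mitochondrially encoded genes in KO at 1166 ± 233 RPKM (mean ± SD over 3 libraries), with 1631 ± 415 RPKM in WT. mt-Nd1 led in WT at 1760.5 ± 642 RPKM, with 891 ± 203 RPKM in KO. mt-Nd3 averaged 368 ± 19.4 RPKM in KO and 374 ± 85.7 RPKM in WT and took the seventh place in KO and the tenth in WT. mt-Nd5 and mt-Nd6 held the lowest places, at 129 ± 75.1 and 120.2 ± 79.6 RPKM in KO and 326 ± 150.0 and 333 ± 135 RPKM in WT. In WT every pair of neighbours in this order differed by less than the larger SD of the pair, and in KO mt-Atp8 (799 ± 192 RPKM) and mt-Co1 (402 ± 214 RPKM) alone differed by more. The RPKM of the 9 genes with annotated copies are uncertain, and so are their places in this order. Among nuclear-encoded genes, Atp5a1 and Atp5b, the catalytic-core subunits of ATP synthase, stood highest, at 113.5 ± 8.03 and 101 ± 5.50 RPKM in KO and 97.9 ± 3.01 and 98.5 ± 3.12 RPKM in WT. The mitochondrial over nuclear ratio of summed RPKM was 5.45, 3.01 and 3.97 in KO and 7.83, 9.496 and 4.68 in WT.

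Within a day the genotypes could be compared only library against library, without a test. On day 36, 12 of 13 mitochondrially encoded genes were at least 2-fold lower in KO, against 4.67% of the genes at 5 CPM or more; mt-Nd3 was the exception (log2 -0.35). The largest differences were mt-Co1 at -2.82, mt-Nd6 at -2.76, mt-Nd5 at -2.75, and mt-Cytb and mt-Nd4 both at -2.62. On day 33 none reached 2-fold (4.1% of genes were lower and 2.48% higher in KO by that much), although all 13 were lower in KO, from -0.83 for mt-Nd2 to -0.33 for mt-Nd3. On day 42, mt-Nd6 alone was at least 2-fold lower (-1.44, against 6.5% of genes), and mt-Nd3 (0.42) and mt-Atp8 (0.25) were higher in KO, short of the 2-fold that 3.03% of genes reached upwards.

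**Figure D4:**
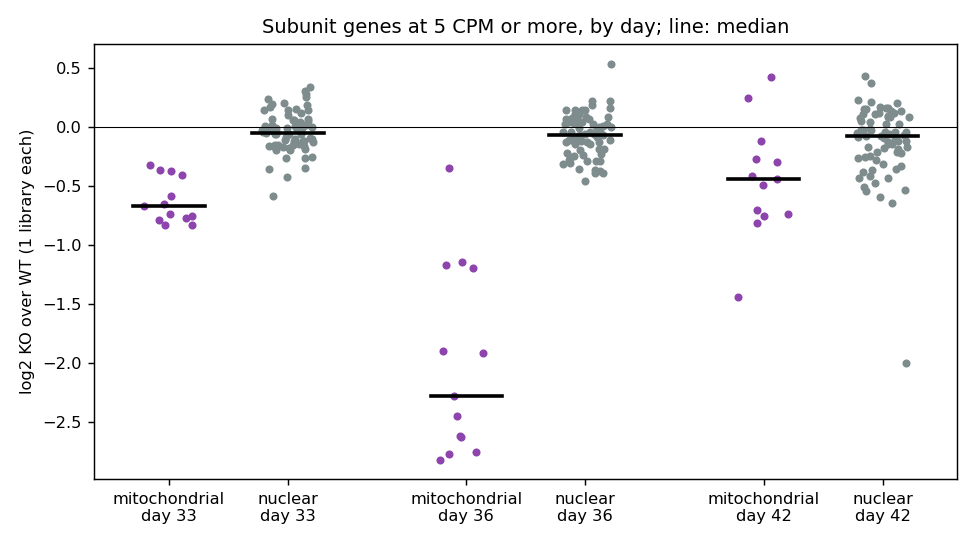
Log2 KO over WT by day for mitochondrially encoded (purple) and nuclear-encoded (grey) members at 5 CPM or more in the higher library, 1 gene per point, with the median as a black line. Medians were -0.67, -2.27 and -0.44 for mitochondrially encoded members and -0.05, -0.06 and -0.08 for nuclear-encoded members on days 33, 36 and 42; the low grey point on day 42 is Cox6b2 (-1.999).

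Among nuclear-encoded members, 72 of 83 were at 5 CPM or more in the day comparisons of the genotypes. None differed by 2-fold on days 33 and 36 (on day 36, 2.96% of genes were that much higher in KO), and Cox6b2 alone did so on day 42. Values below 0 were the more common, in 46 of 72 members on day 33, 46 on day 36 and 47 on day 42. The medians were -0.05, -0.06 and -0.08, against 0.004, 0.003 and 0.019 over all genes at 5 CPM or more. The lowest were Atp5s at -0.58 and Ndufa6 at -0.42 on day 33, Uqcrq at -0.46 and Cox8a at -0.39 on day 36, and, after Cox6b2, Atp5s at -0.64 and Cox6a1 at -0.59 on day 42. The highest were Atp5g3 at 0.34, Atp5sl at 0.31, Ndufs7 at 0.28, Ndufs4 at 0.25 and Ndufb5 at 0.24 on day 33. On day 36 these were Atp5sl at 0.53, Ndufv2 and Ndufa2 both at 0.22, Atp5g3 at 0.19 and Atp5g2 at 0.16. On day 42 Atp5sl was at 0.43, Uqcrfs1, the Rieske iron-sulphur protein of complex III, at 0.37, and Atp5a1 at 0.23. Atp5sl, whose product is a complex I assembly factor despite its name, was higher in KO on all 3 days.

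Between days the course of the mitochondrially encoded messages ran opposite ways in the genotypes, with 1 library per point and no test of the difference. From day 33 to day 36 all 13 were lower in KO, 7 of them at least 2-fold (2.34% of genes were lower by that much and 1.09% higher), led by mt-Co1 (-1.64), mt-Nd5 (-1.58), mt-Nd6 (-1.54), mt-Cytb (-1.42) and mt-Nd4 (-1.29). Over the same days 11 of 13 were higher in WT, none by 2-fold (0.326% of genes were higher and 0.995% lower by that much), led by mt-Co1 (0.59), mt-Nd4 (0.57), mt-Cytb (0.55), mt-Co2 (0.52) and mt-Nd1 (0.47), while mt-Nd3 stood at -0.10. From day 36 to day 42, 11 of 13 were higher in KO, none by 2-fold (0.414% of genes were higher and 0.491% lower by that much), led by mt-Co1 (0.72), mt-Cytb (0.69), mt-Nd4 (0.52), mt-Co2 (0.50) and mt-Nd4l (0.48). In WT all 13 were lower on day 42 than on day 36, 10 of them at least 2-fold (2.48% of genes were lower and 4.37% higher by that much), led by mt-Nd5 (-1.66), mt-Atp8 (-1.54), mt-Nd2 (-1.53), mt-Cytb (-1.45) and mt-Nd6 (-1.43). From day 33 to day 42 every one was lower in both genotypes, with medians of -0.70 in KO and -0.83 in WT. By at least 2-fold, 2 of 13 were lower in KO (2.62% of genes were lower and 1.45% higher) and 3 of 13 in WT (2.07% lower and 3% higher).

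The mitochondrially encoded genes followed each other closely. Across the 6 libraries, the correlation of each gene's log2 CPM with the mean of the 13 (which includes it) had a median r of 0.986 and ran from 0.655 for mt-Nd3 to 0.997 for mt-Nd5. For 77 nuclear-encoded members the correlation with that mean ran from -0.861 to 0.931, with a median of 0.398. These values describe 6 libraries that share genotype, day and scaling.

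Nuclear-encoded members differed little between days too. From day 36 to day 42, 60 of 71 lay below 0 in KO and 55 of 73 in WT. The medians of this step were -0.15 in KO and -0.11 in WT, against -0.007 and -0.018 over all genes at 5 CPM or more. The complex III subunit Uqcrq was the lowest over that step in both, at -0.74 in KO and -0.77 in WT. In KO it was followed by Ndufb6 (-0.56), Uqcr11 (-0.54), Ndufa7 (-0.54) and Cox6a1 (-0.47). From day 33 to day 36 in KO the highest were Ndufv2 (0.40), Atp5s (0.33), Ndufa12 (0.26), Uqcrc2 (0.23) and Cox5b (0.22). In WT from day 33 to day 36 the lowest were Atp5h (-0.15), Ndufb4 (-0.11), Ndufa13 (-0.08) and Atp5g2 (-0.07). From day 36 to day 42 in WT the highest after Cox6b2 (2.43) were Ndufb2 (0.33), Atp5e (0.29), Ndufa2 (0.24) and Sdhc (0.15).

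Over the 3 days, 77 of the 83 nuclear-encoded members could be tested and the median log2 KO over WT was -0.06. None was called higher and 3 were called lower in KO by edgeR's quasi-likelihood test, a share near the 4.65% of all genes tested that were called lower. Of these 3, Cox6a2 was tested only because of its WT level. Fitted values lay within ±0.25 for 64 of 77 (83.1%), against 52.5% of all genes tested and 59.4% of those at a mean of 5 CPM or more. The 3 KO libraries lay below the 3 WT libraries for 16 members and above them for 5, against 17.1% and 17.2% of all genes tested. With DESeq2, 1 member was called higher and 4 lower in KO (7.55% and 9.02% of all genes).

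**Figure D5:**
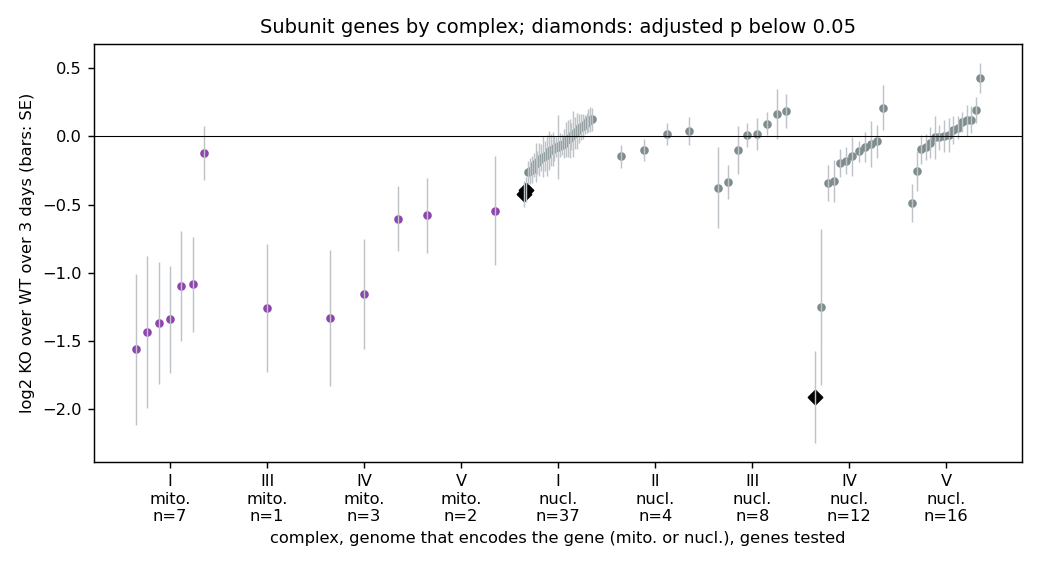
Fitted log2 KO over WT (± SE, 3 libraries per genotype) of each tested member, grouped by complex and by the genome that encodes it and sorted within a group. All mitochondrially encoded points lie below 0, most nuclear-encoded points lie within ±0.25, and the 3 diamonds are Ndufa6, Ndufv3 and Cox6a2. Cox6a2 was tested only because of its WT level.

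Counts and medians by complex follow the gene names. The names of complex I took in 37 nuclear-encoded members, Ndufa4 and Ndufa4l2 among them, all tested, with a median of -0.08; 2 were called lower. Ndufv3, a small subunit of the NADH-oxidising module (chromosome 17, 31520115 to 31531331, plus strand, GRCm38), was at 36.6, 36.3 and 30.7 CPM in KO and 46.9, 47.1 and 44.7 CPM in WT, and fell by 0.42 ± 0.10 on the log2 scale (adjusted p = 0.0472 by edgeR). Ndufa6, an accessory subunit (chromosome 15, 82350140 to 82354322, minus strand), was at 16.4, 18.03 and 15.9 CPM in KO and 21.9, 21.9 and 22.02 CPM in WT, and fell by 0.39 ± 0.09 (adjusted p = 0.0467). For both, every KO library lay below every WT library. Both calls were lost when any single library was left out (log2 -0.44 to -0.35 for Ndufa6 and -0.46 to -0.34 for Ndufv3), when libraries were scaled by their totals alone (adjusted p = 0.131 for Ndufa6 and 0.0771 for Ndufv3), without the filter on low counts and when day was added as a term. The catalytic core of complex I showed small differences: Ndufs1 was at 109 to 114 CPM in KO and 110.3 to 121 CPM in WT, and Ndufv1, the NADH-binding subunit, at 72.8 to 74.6 CPM in KO and 67.9 to 71.0 CPM in WT (log2 0.09 ± 0.07, adjusted p = 0.471).

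Complex II, encoded by nuclear genes alone, summed to 498, 530.2 and 489 CPM in KO and 536, 539 and 526 CPM in WT. Sdha, its flavoprotein subunit, was at 213, 242 and 224 CPM in KO and 255, 250.3 and 247 CPM in WT, and did not pass the test (log2 -0.15 ± 0.08, adjusted p = 0.317 by edgeR). Its KO libraries lay below all WT libraries, while Sdhb, Sdhc and Sdhd overlapped between genotypes. For complex III, 8 members summed to 482, 512 and 449 CPM in KO and 486, 525 and 423 CPM in WT. Uqcr10, a small subunit, did not overlap, at 24.95, 22.3 and 18.6 CPM in KO and 27.9, 28.7 and 26.5 CPM in WT (-0.34 ± 0.12, adjusted p = 0.141).

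Complex IV had the lowest median of the nuclear-encoded groups (-0.16 over 12 tested of 17 members), and 11 of 12 were below 0. The median over all genes tested was -0.01. Its sum was 536, 532 and 481 CPM in KO and 601, 632 and 532 CPM in WT. Cox4i1, a regulatory subunit, was at 221, 214 and 202 CPM in KO and 254, 262 and 213 CPM in WT (-0.19 ± 0.11, adjusted p = 0.289 by edgeR). Cox8a was at 36.6, 32.7 and 26.6 CPM in KO and 39.7, 43.0 and 38.6 CPM in WT (-0.34 ± 0.13, adjusted p = 0.155). Cox6a1 was at 56.8, 53.7 and 38.7 CPM in KO and 62.9, 65.7 and 58.4 CPM in WT (-0.33 ± 0.15, adjusted p = 0.231). In both, the KO libraries lay below all WT libraries.

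The tissue-restricted isoforms of complex IV were scarce. Cox6a2, the isoform of heart and skeletal muscle (chromosome 7, 128205435 to 128206387, minus strand), had 6, 4 and 5 counts in KO and 25, 19 and 27 counts in WT, or 0.180, 0.149 and 0.127 CPM against 0.534, 0.436 and 0.774 CPM. It fell by 1.91 ± 0.34 on the log2 scale (adjusted p = 0.024 by edgeR). The call was lost without KO day 36, KO day 42 or WT day 33 (log2 -1.97 to -1.78). Cox7a1, with 6 counts in each KO library, was not tested, so Cox6a2 passed the low-count filter through its WT counts. Its call therefore concerns a gene that was tested because of its WT level. The 8 skeletal muscle markers summed to 341, 324 and 203 CPM in KO and 508, 656 and 353 CPM in WT. Nearly all of that was Acta1, the skeletal muscle actin, at 333, 322 and 202 CPM in KO and 503, 653 and 350 CPM in WT; 3 of 8 markers were tested, none was called and Myod1 had 0 counts in every library. The 4 cardiac muscle markers, of which 3 were tested and none called, summed to 82.2, 77.6 and 59.8 CPM in KO and 113.2, 158 and 96.5 CPM in WT, mostly from Actc1, the cardiac actin. The part of both lists in the result was not tested.

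Cox6b2, the testis isoform, was at 2.60, 1.94 and 2.48 CPM in KO and 4.87, 1.83 and 10.1 CPM in WT, so that WT day 42 stood apart from the rest (-1.25 ± 0.57, adjusted p = 0.219 by edgeR). Its ubiquitous partner Cox6b1 was at 47.8, 49.6 and 44.8 CPM in KO and 54.4, 57.8 and 48.6 CPM in WT. The 4 germ cell markers summed to 0.568, 0.672 and 0.609 CPM in KO and 2.43, 1.83 and 2.64 CPM in WT. Ddx4, the 1 of them tested, fell by 2.19 ± 0.24 (adjusted p = 0.00924 by edgeR, lost without KO day 36 or KO day 42, at -2.26 and -2.09). Ddx4, too, may have passed the low-count filter through its WT level. The part of the germ cell markers in the Cox6b2 values was not tested. Untested for low counts were Cox4i2 (7, 1 and 1 counts in KO and 15, 9 and 20 in WT), Cox7a1 (6 counts in each KO library and 21, 21 and 7 in WT), Cox7b2 (1 count each in WT days 33 and 36 and none elsewhere), Cox8b and Cox8c (0 rounded counts in every library) and Atp5l (at most 6 counts). Atp5l, a complex V member, held 22.4 counts over all libraries and its 7 annotated copies 66.2, so its level is uncertain. A count of 0 allows up to 3 counts in a library. Ndufa4, a complex IV subunit that is counted above under complex I by its name, was at 45.2, 48.8 and 42.6 CPM in KO and 41.7, 46.2 and 41.9 CPM in WT, and its hypoxia-linked paralogue Ndufa4l2 at 4.44 to 4.95 CPM in all 6 libraries. Cox7a2l, which takes part in joining complexes III and IV, was at 70.1, 76.5 and 74.3 CPM in KO and 78.3, 87.5 and 67.7 CPM in WT, and Cox7b at 23.2 to 25.4 CPM in KO and 21.2 to 27.5 CPM in WT.

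Complex V summed to 2163, 2271 and 2057 CPM over its 17 nuclear-encoded members in KO and 2117, 2244 and 1961 CPM in WT, with a median log2 of 0.01 over 16 tested. Nearest to the threshold were Atp5sl (0.43 ± 0.11, adjusted p = 0.0618 by edgeR), at 8.92, 10.2 and 9.94 CPM in KO and 7.20, 7.02 and 7.37 CPM in WT, and Atp5s (-0.49 ± 0.14, adjusted p = 0.0795), at 6.34, 7.99 and 6.06 CPM in KO and 9.53, 9.61 and 9.49 CPM in WT. Both bear names of ATP synthase without being structural subunits. Of 83 nuclear-encoded members, 22 have annotated near-identical copies that held 8.26% of counts, from 0.0407% for Cox5b to 74.7% for Atp5l. Copies held most of the counts for Atp5h (64.3%), Atp5g2 (63.0%), Uqcrb (57.2%), Ndufb4 (52.6%) and Cox7b (52.6%), so their levels are uncertain; with copies added, the same number of members (0 higher, 3 lower) was called.

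Other mitochondrial genes were set beside the members as lists. Of 209 tested in 13 lists, 1 was called higher and 2 lower in KO, against 4.07% and 4.65% of all genes tested. Among 19 complex IV assembly factors tested, Surf1 fell by 0.40 ± 0.08 (21.6, 21.2 and 20.2 CPM in KO, 26.95, 26.97 and 29.2 CPM in WT, adjusted p = 0.0372 by edgeR). Coa7 rose by 0.62 ± 0.14 (10.02, 10.4 and 10.3 CPM in KO, 6.88, 7.54 and 5.53 CPM in WT, adjusted p = 0.0464). Of 8 mitophagy genes, Park2, which encodes parkin, fell by 1.95 ± 0.40 at low levels (0.269, 0.149 and 0.177 CPM in KO, 0.662, 0.550 and 1.15 CPM in WT, adjusted p = 0.0362). Park2 passed the low-count filter through its WT level. Its call, among the 2 lower, therefore concerns a gene that was tested because of that level. Each of these calls was lost when single libraries were left out: any of the 6 for Surf1 (log2 -0.42 to -0.36), any but WT day 42 for Coa7 (0.62 to 0.72), and KO days 36 and 42 and WT days 33 and 36 for Park2 (-2.15 to -1.80).

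The apparatus that makes mitochondrial RNA and protein had no called member, while 8.72% of all genes tested were called. The medians of log2 KO over WT were 0.14 for 10 genes of mitochondrial DNA transcription, -0.07 for 11 of its replication, 0.12 for 21 of RNA processing and stability, 0.09 for 75 ribosomal proteins of mitochondria and -0.02 for 9 translation factors, against -0.01 over all genes tested. Tfam, which packages mitochondrial DNA and starts its transcription, was at 30.8, 32.1 and 36.4 CPM in KO and 28.3, 25.7 and 30.1 CPM in WT (0.24 ± 0.10, adjusted p = 0.199 by edgeR). Polrmt, the mitochondrial RNA polymerase, stood at -0.03 ± 0.11 (adjusted p = 0.903), and Lrpprc, which stabilises mitochondrial messages, at 0.12 ± 0.16 (adjusted p = 0.681). Nrf1 was at 34.3, 37.2 and 35.6 CPM in KO and 29.2, 29.2 and 25.7 CPM in WT (0.35 ± 0.09, adjusted p = 0.0622). Its libraries did not overlap, as for 17.2% of all genes tested with KO above WT. The 8 regulators of mitochondrial biogenesis tested ran from -1.91 to 0.35, with a median of 0.14 and none called. Ppargc1a and Ppargc1b, coactivators of mitochondrial biogenesis, were at most 0.688 and 0.344 CPM and were not tested. Cyc1 and Cycs, the cytochromes that the name rule does not cover, were at 82.7 to 90.0 and 3.56 to 3.73 CPM in KO and 80.5 to 87.0 and 2.58 to 4.38 CPM in WT, and neither was called.

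The mitochondrial ribosomal RNAs, which are no subunit genes and are poorly caught by poly(A) selection, were lower in KO as well. mt-Rnr1 was at 46.8, 31.9 and 37.3 CPM in KO and 86.6, 97.9 and 55.9 CPM in WT, and fell by 1.05 ± 0.24 on the log2 scale (adjusted p = 0.0463 by edgeR). This call was lost without KO day 36, KO day 42, WT day 33 or WT day 36 (-1.02 to -0.88), and by limma-voom (adjusted p = 0.0516). mt-Rnr2 was at 175, 145 and 93.1 CPM in KO and 282, 352 and 122 CPM in WT (-0.87 ± 0.41, adjusted p = 0.233). KO lay below WT on each day for both.

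RefSeq promoter windows (GRCm38.p6, 250 bases before to 50 after the gene start) were matched by symbol or gene ID for 65 of 83 nuclear-encoded members. Both strands were searched. The NRF1 motif, GCGCA and GCGC parted by any 1 base, was found in 16 of 65 (24.6%), against 4.78% of 27025 promoters. CCGGAAG (GABP and other ETS factors) was found in 15 (23.1%, against 9.12%), and AAGATGG (YY1) in 9 (13.8%, against 6.48%). The 27025 promoters were not matched to the members for expression or base content, and the part of these in the differences was not tested. The ETS and YY1 letters can overlap by AAG; no member held both, and 35 members held any of the 3. Windows of 60 bases around the NRF1 match follow, in capitals, for the 4 members of highest mean RPKM whose match lay well inside the part before the gene start, to show the motif in its sequence; a match is a description of the letters, not of binding.
Sdhd (chr9:50603894-50603953, minus strand): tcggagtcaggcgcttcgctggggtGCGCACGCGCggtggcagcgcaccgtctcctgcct
Cox6a1 (chr5:115349086-115349145, minus strand): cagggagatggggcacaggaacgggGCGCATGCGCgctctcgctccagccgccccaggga
Sdha (chr13:74350304-74350363, minus strand): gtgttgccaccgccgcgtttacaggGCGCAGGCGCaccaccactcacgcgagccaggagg
Ndufs5 (chr4:123718250-123718309, minus strand): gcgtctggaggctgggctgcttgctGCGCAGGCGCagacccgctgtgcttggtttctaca

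Sdhd and Sdha encode subunits of complex II, Cox6a1 a subunit of complex IV and Ndufs5 a subunit of complex I. Sdhd was at 106, 107 and 95.8 CPM in KO and 101, 105 and 98.9 CPM in WT (log2 0.02 ± 0.08), overlapping between genotypes. Ndufs5 was at 22.2, 19.9 and 20.8 CPM in KO and 24.8, 24.6 and 23.4 CPM in WT (-0.21 ± 0.09, adjusted p = 0.178 by edgeR), with every KO library below every WT library.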

How the data were processed

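RNA of primary MEFs was made into stranded mRNA libraries, per the labels' protocols. The authors deposited estimated counts per gene, fractional and not normalized, and RPKM values per gene, per the file headers. The submitters' processing notes name mm10, Bowtie2 2.2.1 and limma 3.18.13 without roles; the sources used here give neither the counter nor its annotation or strand setting. Near-identical genes hold like counts.

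The 4 columns of each genotype and day (mean chi-square per degree of freedom 0.832 to 0.843, and 0.996 to 1.05 for genes over 10000 counts) were summed to 6 libraries of 25651250 to 48717439 counts and rounded. Genotypes were compared over days with edgeR 4.0.16 in R 4.3.3 by its robust quasi-likelihood test. Low counts were filtered by filterByExpr (17233 genes left) and libraries scaled by TMM (0.927 to 1.08). Benjamini-Hochberg adjustment ran over all genes tested, at a threshold of 0.05. The fit was also run on simulated data, whose outcome is not given here. Days served as replicates, and nothing in the labels says that they were separate cultures. The p-values therefore rest on a spread between libraries that holds the course over days and passages and may in part be technical. Single libraries were compared at 2-fold and 5 CPM (log2 CPM with a prior count of 2), without a test. Members were those of 101 name matches left after 4 pseudogene names and 1 gene that is not reported here. Members and lists were chosen with earlier results of these data known. Named were the 13 mitochondrially encoded genes, called nuclear-encoded members, the 5 largest single-library differences each way, tissue isoforms, up to 3 called genes of each list and set regulators; others were named after their values were seen. Copies were found with BLAST 2.17.0 in GENCODE M21 transcripts. Alternatives used DESeq2 1.42.0, limma 3.58.1, other scalings and filters, and left-out libraries. Not used were 48 per-sample columns of the transcript table.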

Additional observations from a re-analysis of the deposited data

Results flagged for a closer look

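The summed level of the mitochondrially encoded subunits moved in opposite directions in the genotypes between neighbouring days. From day 33 to day 36 its log2 difference was -0.96 in KO and 0.39 in WT. From day 36 to day 42 it was 0.32 in KO and -1.22 in WT. Each value rests on 1 library per genotype and day, so the difference between genotypes was not tested.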

How the results depend on the processing

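The mean log2 KO over WT of the 3 days was -0.999 for the summed mitochondrially encoded members, -0.025 for the nuclear-encoded and -0.975 for their ratio. Leaving out libraries, days or column numbers gave -1.34 to -0.516, -0.069 to 0.014 and -1.27 to -0.496; the mitochondrial values nearest to 0 were those without day 36. Under library totals only, the nuclear-encoded value was 0.089.

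Over all genes, 1503 were called by edgeR, 2855 by DESeq2 and 3 to 1811 with a library, day or column number left out. The count was 24 and 68 when KO day 36 or KO day 42 was dropped, 254 and 738 when WT day 33 or WT day 36 was, and 429, 3 and 539 for days 33, 36 and 42 dropped whole. Mitochondrially encoded members called lower numbered 0 (7 by DESeq2, 0 to 2 with libraries left out). Nuclear-encoded members called lower numbered 3, with 1 under library totals only, no filter on low counts or day as a factor, and 0 to 3 with libraries left out; called higher were 0, with 1 by DESeq2. Genes of the other lists called higher numbered 1 (4 by DESeq2, 7 under library totals, 0 without the filter or with day as a factor, 0 to 1 with libraries left out), and called lower 2 (8 by DESeq2, 1 under library totals or with day as a factor, 0 to 4 with libraries left out). The cause of these moves was not tested. mt-Nd3 ran from -0.33 to 0.021 with libraries left out and reversed without WT day 33. Single-library counts depend on the 2-fold limit. The share of all genes that reach 1.5-fold is not given here. The 1.5-fold counts therefore show only how the counts move with the limit, and cannot be set against a background. At 1.5-fold, mitochondrially encoded members lower in KO than in WT numbered 9 on day 33 (0 at 2-fold), 12 on day 36 (12) and 5 on day 42 (1). Nuclear-encoded members lower in KO numbered 0, 0 and 3 (0, 0 and 1), with none higher in either set. Between days, mitochondrially encoded members lower numbered 12 for KO day 36 over day 33 (7), 8 for KO day 42 over day 33 (2), 12 for WT day 42 over day 36 (10) and 12 for WT day 42 over day 33 (3), and those higher 2 for KO day 42 over day 36 (0) and 1 for WT day 36 over day 33 (0). Nuclear-encoded members lower numbered 1 and 2 for KO day 42 over days 36 and 33, and 2 and 1 for WT day 42 over them (0 in each at 2-fold).

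The replicate numbers do not pair the samples: same-numbered columns deviated together with r of -0.0326 to 0.0323. Treating the 24 columns as samples, which measures sampling noise alone, gave 11107 calls without and 11176 with the replicate block, among them 13 mitochondrially encoded members lower, 13 nuclear-encoded higher and 34 lower, and 80 and 50 of the other lists, with the same member counts in both fits.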

Other observations

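The 5 genes outside the members whose log2 CPM over the 6 libraries followed the mean of the mitochondrially encoded messages most closely, among 11497 genes at a mean of 5 CPM or more, were Gm28439, Gm13341, Gm28661, Gm9803 and Gbe1, with Pearson's r of 0.989 to 0.997. The opening 3 are near-identical nuclear copies of mitochondrial genes. Gbe1, the glycogen branching enzyme, was at 9.78, 8.14 and 8.06 CPM in KO and 11.6, 12.7 and 9.26 CPM in WT. Gm11410, Gm11512 and Gm11407 followed that mean at r of 0.983 to 0.988 and stood at 66.3 to 1701 CPM. They were not among the copies found at the limits used, and their counts were added to no member. Gm11407 was at 199, 66.3 and 76.7 CPM in KO and 353, 457 and 180 CPM in WT, near the levels of mt-Nd6. Gm11410 was at 762, 279 and 466 CPM in KO and 1148, 1701 and 647 CPM in WT, below mt-Cytb in each library. Whether these genes are less similar copies of members was not tested. With 6 libraries and 11497 genes compared, these are descriptions without a test.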
